A study of Mus musculus with 48 samples.

Results

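The genes described here are 8 markers of tuft cells, taken by symbol: Dclk1, Trpm5, Pou2f3, Il25, Gnb3, Gng13, Avil and Alox5. Each symbol matched 1 of the 54532 gene identifiers in the count table, so all 8 were found. Of these, 7 passed the filter on low counts and were tested, and Il25 did not. The samples were whole-thickness pieces of C57BL/6J mouse intestine, 2 cm long, from duodenum next to the pylorus or ileum next to the caecum. Mice of both sexes were taken at 8 ages, from the day of birth (day 0) through days 2, 4, 6 and 8 to weeks 2, 3 and 4. Each of the 16 groups of region and age had 3 samples. No treatment or mutation is labelled. The mice were kept with the dam until day 21 and on chow afterwards. The housing is labelled as germ-free, but the labels also speak of limiting differences in exposure to microbes, so the microbial status of the mice is uncertain. Usually 2 or 3 ages came from a litter, and nothing states which pieces came from which animal, so p-values measure the spread between these samples.

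Tuft cells are rare chemosensory cells of the epithelium, named for a stiff bundle of microvilli at the tip. A ligand such as succinate acts on a surface receptor coupled to a taste-type G protein. Gnb3 and Gng13 encode the beta and gamma subunits found in taste cells, phospholipase C-beta then releases calcium from stores, and calcium opens the cation channel Trpm5. The cell answers with the cytokine Il25 and with leukotrienes, which need the lipoxygenase Alox5. In the adult gut Il25 drives innate lymphoid cells to make Il13, which turns epithelial progenitors towards more tuft and goblet cells. The transcription factor Pou2f3 is required for the lineage, Dclk1 is a microtubule-associated kinase used to mark it, and Avil encodes advillin, an actin-binding protein of the microvillus bundle.

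The members lie on 7 chromosomes of mm10, the build named in the submitters' processing notes, with positions from GENCODE M21. Dclk1 spans chr3:55242364-55539068 and Avil spans chr10:127000709-127020994, both on the plus strand. Trpm5 spans chr7:143069153-143094642 and Pou2f3 spans chr9:43123939-43210369, both on the minus strand. Alox5 at chr6:116410077-116461178 and Gnb3 at chr6:124834240-124840275 are on the minus strand, and Gng13 at chr17:25717171-25719406 and Il25 at chr14:54932695-54935837 on the plus strand. All 8 are protein-coding.

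Pou2f3 is a POU-domain factor, and proteins of that family bind the octamer ATGCAAAT. RefSeq windows (GRCm38.p6) were at hand for 5 members, 7 windows in all, and the 250 bases before each annotated start were searched on both strands. The octamer or its reverse complement ATTTGCAT was in 0 of these 7 windows, against 1.60% of 32851 windows of all genes. At that share 0 of 7 is the likely outcome, so nothing is read from it. A shortened core of 7 letters, ATGCAAA or TTTGCAT, which every octamer contains and which was chosen after the windows had been seen, occurred in Avil alone. Avil held 2 copies, beginning 115 and 15 bases before the start, whereas 4.12% of all windows held at least 1 and 0.247% held 2 or more. Because the core was picked with these windows in view, the shares do not measure how unusual Avil is. These are letter matches and not measured binding. The Avil window is shown for its core copies, in capitals, the Trpm5 window for the largest duodenal rise among the tested members, and both Dclk1 windows because they belong to separate annotated starts of the gene. Avil lies at chr10:127000459-127000708 on the plus strand, Trpm5 at chr7:143094643-143094892 on the minus strand and Dclk1 at chr3:55242114-55242363 and chr3:55461478-55461727 on the plus strand. The first 3 windows named are upstream of their gene and the last is inside a Dclk1 intron.
Avil: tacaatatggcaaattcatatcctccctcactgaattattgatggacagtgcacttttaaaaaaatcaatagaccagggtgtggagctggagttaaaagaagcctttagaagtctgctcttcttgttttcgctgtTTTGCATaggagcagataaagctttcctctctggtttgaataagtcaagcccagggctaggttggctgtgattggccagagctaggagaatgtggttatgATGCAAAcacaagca
Trpm5: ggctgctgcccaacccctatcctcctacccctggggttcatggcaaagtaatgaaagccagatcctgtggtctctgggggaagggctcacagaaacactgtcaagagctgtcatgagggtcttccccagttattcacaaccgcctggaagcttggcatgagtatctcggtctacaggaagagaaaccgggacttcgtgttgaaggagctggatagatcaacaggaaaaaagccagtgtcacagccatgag
Dclk1, upstream start: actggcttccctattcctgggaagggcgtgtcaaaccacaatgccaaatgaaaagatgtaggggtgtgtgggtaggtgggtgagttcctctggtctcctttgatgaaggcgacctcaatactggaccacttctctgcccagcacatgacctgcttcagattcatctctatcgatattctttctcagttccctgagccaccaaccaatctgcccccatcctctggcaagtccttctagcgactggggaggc
Dclk1, intronic start: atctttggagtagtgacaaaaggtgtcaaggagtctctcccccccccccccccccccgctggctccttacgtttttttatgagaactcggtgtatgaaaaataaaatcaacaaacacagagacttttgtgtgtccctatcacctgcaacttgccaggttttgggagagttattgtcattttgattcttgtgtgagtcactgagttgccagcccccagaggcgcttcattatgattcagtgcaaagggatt

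Total estimated counts ran from 16824021 to 65042327 over the 46 samples analysed, 23173093 to 65042327 in duodenum and 16824021 to 42029626 in ileum. Levels below are CPM, counts per megacount after TMM scaling. The day 6 samples numbered 3 stood apart and were left out, because their regional markers go against their labels. Gata4, a transcription factor of the upper intestine, was at 97.8 to 161 CPM without TMM scaling in the 23 duodenum samples and at 19.7 to 92.4 in the 23 ileum samples. The sample labelled duodenum had 51.1 and the sample labelled ileum 103. Pdx1, a duodenal factor, was at 0.130 and 14.1 in the same samples, so 2 samples remain in each day 6 group. The day 4 samples of both regions, which the authors' normalized tables also lack, were kept. Their mesenchyme and muscle markers were spread widely, with sums of 7.98 to 106 CPM in duodenum and 92.7 to 349 in ileum. The 10 epithelial markers summed to between 3783 and 5625 CPM at day 8 and between 6324 and 9954 at week 4, over both regions.

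Tuft cell genes rose strongly after birth in both regions, on different schedules. In duodenum Pou2f3, Dclk1, Trpm5 and Avil had climbed by day 8. Neither single step from there to week 3 was called for them. Their week 3 samples all lay above their day 8 samples. That span was not tested as a whole, and the share of all genes that separate in this way is not given here. Avil, Trpm5 and Pou2f3 rose again between week 3 and week 4. In ileum the same 4 genes were far below duodenum from day 8 to week 3, and their largest tested step was from week 3 to week 4. At week 4 none of the 7 tested members was called between the regions. In whole-tissue RNA more tuft cells and more RNA per tuft cell cannot be told apart.

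Pou2f3, the lineage factor, rose early in duodenum. Its duodenal mean was 0.0643 ± 0.0406 CPM (SD, n = 3) at day 0, 0.183 ± 0.0395 at day 2 and 0.325 ± 0.154 at day 4. At day 6 the 2 samples had 1.91 and 2.15, and at day 8 the 3 samples had 1.43, 1.41 and 1.44. The mean was 2.10 ± 0.528 at week 2 and 1.76 ± 0.279 at week 3. The week 4 samples had 4.72, 5.25 and 3.25. Every duodenal sample from day 6 on was thus above every sample of day 0 to day 4, while day 6, week 2 and week 3 overlapped with their neighbours in the order of levels.

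In ileum Pou2f3 moved from its day 0 level to a somewhat higher one by day 6, and every sample from day 6 to week 3 was above every day 0 sample but below the duodenal samples of the same age. The day 0 samples had 0.0370, 0.334 and 0.0238 CPM, and the means were 0.164 ± 0.0750 at day 2 and 0.181 ± 0.0769 at day 4. Between day 6 and week 3 all 11 samples lay from 0.339 to 0.640. The week 3 samples had 0.640, 0.579 and 0.531 and the week 4 samples 4.54, 1.77 and 3.01. So the ileum at week 3 held less Pou2f3 than the duodenum at day 6, and at week 4 the regions overlapped.

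Dclk1 was measurable in all 46 samples and followed a similar course in duodenum. In duodenum its means were 0.558 ± 0.151 CPM at day 0, 1.01 ± 0.305 at day 2, 1.62 ± 1.30 at day 4, 4.52 ± 0.105 (n = 2) at day 6 and 5.14 ± 1.07 at day 8. They then were 9.61 ± 2.68 at week 2 and 9.36 ± 0.660 at week 3, and the week 4 samples had 15.5, 21.7 and 23.2. Levels at day 0, 2 and 4 overlapped, as did day 6 with day 8 and week 2 with week 3. In ileum Dclk1 began at 0.665, 1.88 and 1.38 CPM on day 0 and had means of 0.445 ± 0.232 at day 2, 0.942 ± 0.735 at day 4, 1.01 ± 0.418 (n = 2) at day 6, 0.787 ± 0.187 at day 8 and 1.05 ± 0.559 at week 2. No ileal age from day 2 to week 3 stood above all day 0 samples. The week 3 samples had 1.52, 2.32 and 5.59, and the week 4 samples 46.1, 11.9 and 31.3, all above every earlier ileal sample.

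Avil, the bundle protein, followed in steps. Its duodenal means were 0.482 ± 0.247 CPM at day 0, 0.943 ± 0.470 at day 2, 0.998 ± 0.628 at day 4, 2.61 ± 0.668 (n = 2) at day 6, 2.86 ± 0.102 at day 8, 5.56 ± 0.440 at week 2 and 5.06 ± 0.444 at week 3. The week 4 samples had 19.1, 19.0 and 15.1. Week 4 was clear of week 2 and week 3, which overlapped, and both of these were clear of day 8. In ileum Avil had means of 0.577 ± 0.393 at day 0, 0.232 ± 0.0797 at day 2, 0.512 ± 0.254 at day 4, 1.18 ± 0.794 (n = 2) at day 6, 0.352 ± 0.0760 at day 8 and 0.537 ± 0.194 at week 2. The week 3 samples had 1.00, 1.69 and 1.78 and the week 4 samples 17.0, 5.34 and 18.8. In ileum day 4 was clear of day 2 and week 3 clear of week 2, both higher, and day 8 was clear below day 6, while the other neighbouring ages before week 4 overlapped.

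Trpm5, the channel that ends the chemosensory cascade, was almost without counts in the newborn duodenum. The day 0 samples of duodenum had 0.0554, 0 and 0.364 CPM, and the means were 0.409 ± 0.157 at day 2, 0.978 ± 0.150 at day 4, 2.06 ± 0.171 (n = 2) at day 6, 2.70 ± 0.323 at day 8, 4.43 ± 1.13 at week 2 and 5.07 ± 0.411 at week 3. The week 4 samples had 13.7, 22.8 and 13.8. The duodenal ages ranked in the order of time, and only day 0 with day 2 and week 2 with week 3 overlapped. In ileum the means were 0.567 ± 0.248 at day 0, 0.244 ± 0.206 at day 2, 0.583 ± 0.126 at day 4, 0.227 ± 0.0470 (n = 2) at day 6, 0.443 ± 0.317 at day 8 and 0.355 ± 0.135 at week 2. The week 3 samples had 1.16, 1.11 and 1.45, all above every earlier ileal sample, and the week 4 samples had 15.4, 8.04 and 19.8.

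Of the G protein subunits that couple receptors to this channel, neither was abundant. Gng13 had 115 counts over the 23 duodenum samples and 59 over the 23 ileum samples. Its week 4 samples had 0.652, 0.195 and 0.106 CPM in duodenum and 0.641, 0.310 and 0.668 in ileum, and the ileal ones exceeded every earlier ileal sample. Gnb3 had 72 and 55 counts in all. Its week 4 samples had 0.287, 0.278 and 0.248 CPM in duodenum and 0.233, 0.248 and 0.0668 in ileum, and in both regions they overlapped with earlier ages. Gnb3 was at 0 in all 3 ileum samples of day 2. A count of 0 allows up to 3 counts, which is 0.0537 to 0.200 CPM depending on the sample, by counting error alone.

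The output genes differed widely. Alox5, which also marks leukocytes, had duodenal means of 0.517 ± 0.379 CPM at day 0, 0.796 ± 0.134 at day 2, 0.341 ± 0.139 at day 4, 0.932 ± 0.0746 (n = 2) at day 6, 0.998 ± 0.131 at day 8, 1.72 ± 0.202 at week 2 and 2.26 ± 0.791 at week 3. The week 4 samples had 4.61, 6.61 and 4.10, above all earlier duodenal samples. In ileum its means lay between 0.154 ± 0.120 at day 0 and 0.484 ± 0.221 at week 3, and the week 4 samples had 4.66, 1.21 and 3.07. Il25 had a count in 8 of 23 duodenum samples, 13 counts in all, and in 1 of 23 ileum samples, with 4 counts. Of the duodenal Il25 counts, 6 fell in week 4, 3 in day 8, 2 in week 3, and 1 each in day 4 and week 2. The ileal counts were all in week 4 replicate 1. These counts are too few for a comparison between ages.

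**Figure D1:**
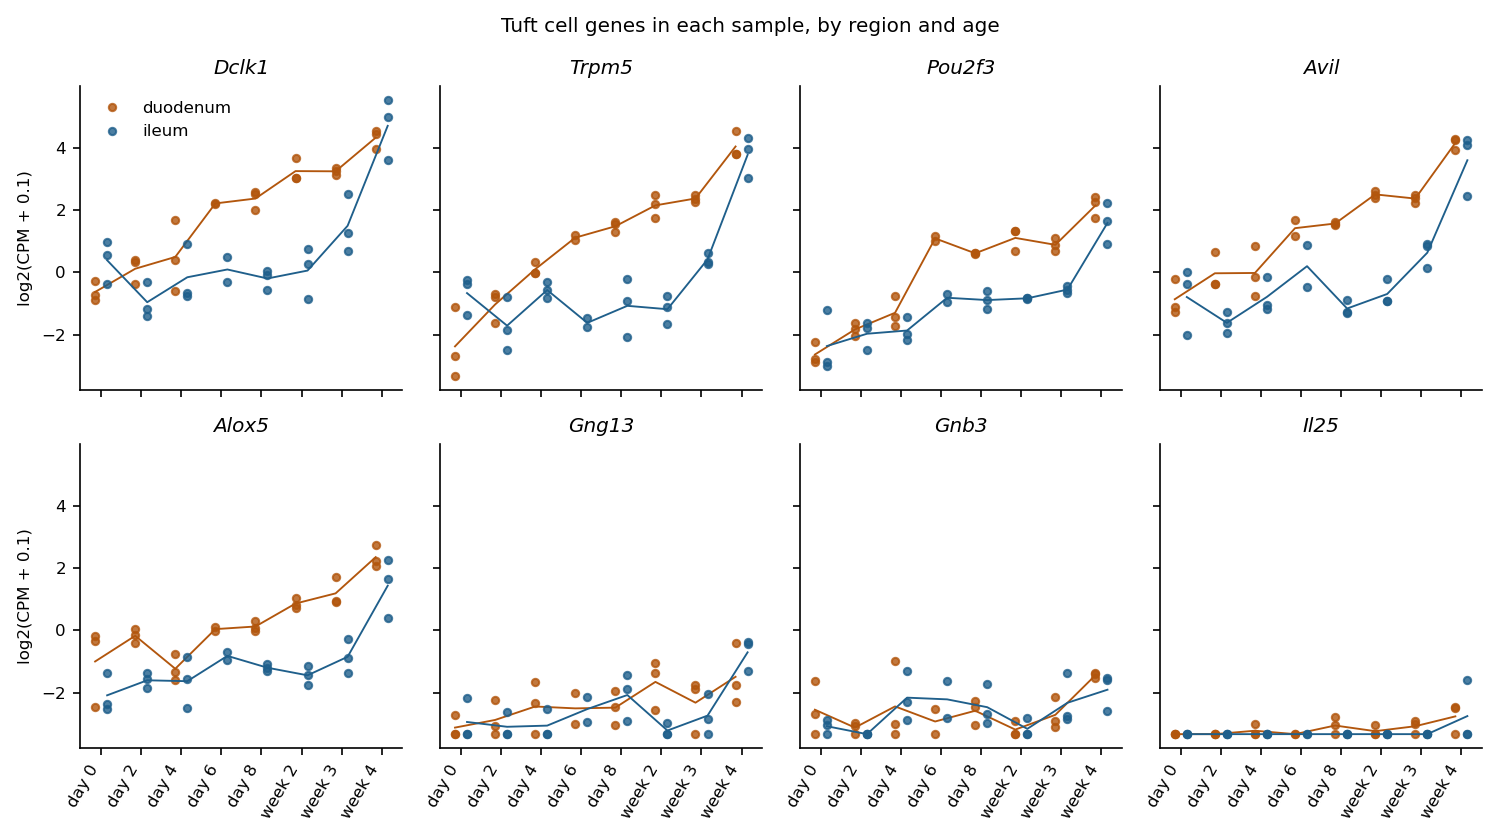
Level of each of the 8 genes in every sample, as log2 of CPM plus 0.1, by age (orange duodenum, blue ileum); points are samples and lines join the group means of the plotted values. Dclk1, Trpm5, Pou2f3 and Avil climb from the first week in duodenum and mainly between week 3 and week 4 in ileum, while Gng13, Gnb3 and Il25 stay near the lower limit.

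Per kilobase of merged exons, Avil was the most abundant member at week 4, with 5.22 CPM per kilobase in duodenum and 4.04 in ileum. Trpm5 had 2.62 and 2.25, Dclk1 1.31 and 1.94, Pou2f3 1.43 and 1.01, and Alox5 1.24 and 0.726. Gng13 followed with 0.411 and 0.698. Gnb3 had 0.103 and 0.0694 and Il25 0.0506 and 0.0730, so Il25 was lowest in duodenum and Gnb3 in ileum. The ileal Il25 value rests on 4 counts in replicate 1. On this length-corrected level the G protein subunits and the cytokine were thus below the channel and the structural genes in both regions.

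Between day 0 and week 4, 6 of the 7 tested members rose in each region and none fell. Over all 21986 genes tested, 20.4% rose in duodenum and 21.5% in ileum at the same threshold, an adjusted p under 0.05 in edgeR's quasi-likelihood test with Benjamini-Hochberg adjustment. The median log2 difference of the members was 5.12 in duodenum and 4.50 in ileum, against -0.02 and 0.08 over all genes. Trpm5 rose by 6.56 on the log2 scale in duodenum (SE 0.56, edgeR adjusted p = 3.50e-12) and by 4.70 in ileum (SE 0.51, 7.89e-10). Pou2f3 rose by 6.05 (SE 0.54) and 4.69 (SE 0.51), Dclk1 by 5.13 (SE 0.59) and 4.50 (SE 0.56), and Avil by 5.12 (SE 0.51) and 4.56 (SE 0.50). Alox5 rose by 3.30 (SE 0.50) in duodenum and 4.31 (SE 0.58) in ileum.

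Gng13 was called with less certainty. It had 3 counts at day 0 in each region, so its pooled ratio of week 4 to day 0 was 12.8 in duodenum (exact 95% counting interval 4.05 to 65.2) and 15.0 in ileum (4.66 to 76.4). The edgeR adjusted p was 0.0264 in duodenum and 0.0185 in ileum. It reached 0.192 when duodenum week 4 replicate 1 was left out and the call was also lost without duodenum day 0 replicate 1 or 2. In ileum the adjusted p reached 0.0966 without ileum day 0 replicate 3, and the call was also lost without ileum day 0 replicate 1. The intervals cover counting error only. Gnb3 was not called, with log2 differences of 1.76 (SE 1.13, edgeR adjusted p = 0.221) in duodenum and 2.96 (SE 1.40, 0.0872) in ileum.

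Any effect of age over the 8 ages was called for 5 of 7 members in duodenum, where 67.4% of all genes were called, and for 6 of 7 in ileum, where 58.7% were. Gnb3 missed the threshold in both regions, with an edgeR adjusted p of 0.0601 and 0.0731, and Gng13 did so in duodenum with 0.126. The duodenal value of Gnb3 fell to 0.0191 without duodenum day 4 replicate 3, and it was also called without duodenum day 0 replicate 2 or 3, day 4 replicate 1 or 2, day 6 replicate 1 or week 3 replicate 3.

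The first duodenal step lay between day 0 and day 8. Pou2f3 rose by 4.42 on the log2 scale (SE 0.53, edgeR adjusted p = 2.30e-08), Trpm5 by 3.93 (SE 0.53, 2.08e-07), Dclk1 by 3.16 (SE 0.56, 1.79e-05) and Avil by 2.49 (SE 0.47, 5.06e-05). These 4 of 7 compare with 22.0% of all genes rising. Alox5 had a log2 difference of 0.94 and was not called (SE 0.48, edgeR adjusted p = 0.119), but the adjusted p was 0.0431 without duodenum day 0 replicate 3. In ileum Pou2f3 alone rose over the same days, by 1.93 (SE 0.54, edgeR adjusted p = 0.00904), where 8.56% of all genes rose. That call was lost without ileum day 0 replicate 1 or 3 or ileum day 8 replicate 3, with an adjusted p of up to 0.109 in edgeR. Dclk1, Trpm5 and Avil had ileal log2 differences of -0.74, -0.39 and -0.74, none of them called.

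No member was called between day 8 and week 2 by edgeR in either region, where 15.7% of all genes changed in duodenum and 6.64% in ileum. At an unadjusted p under 0.05 there was 1 member in duodenum, Avil, and 1 in ileum, Gng13, and DESeq2 called 0 in both. All of Dclk1, Trpm5, Pou2f3, Avil and Alox5 had duodenal log2 differences between 0.56 and 0.96. Pups stayed with the dam until day 21, about the end of the step from week 2 to week 3. Over that step the members with most counts were level in duodenum. Dclk1 had a log2 difference of -0.04 (SE 0.47), Trpm5 0.19 (SE 0.42) and Avil -0.14 (SE 0.42). edgeR and DESeq2 called 0 members there, with 0 under an unadjusted p of 0.05, while 18.3% of all genes changed.

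Ileum gave 3 rises over that step, against 12.9% of all genes. Trpm5 rose by 1.77 on the log2 scale (SE 0.51, edgeR adjusted p = 0.00721), Dclk1 by 1.55 (SE 0.53, 0.0255) and Avil by 1.46 (SE 0.49, 0.0217). These calls were fragile. The Dclk1 adjusted p rose to 0.307 without ileum week 3 replicate 3, the sample with the most Dclk1. The count of calls fell to 1 without ileum week 2 replicate 1, without ileum week 2 replicate 3 or without ileum week 3 replicate 3, and Avil was also lost without ileum week 2 replicate 2 or week 3 replicate 2. It fell to 0 when libraries were scaled to the 10 epithelial genes, whose summed level in ileum moved from between 4745 and 5241 CPM at week 2 to between 7675 and 10219 at week 3.

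Between week 3 and week 4 the ileum showed its main rise, in 5 of 7 members against 8.26% of all genes. Trpm5 rose 11.6-fold (log2 3.53, SE 0.47, edgeR adjusted p = 6.24e-07), Dclk1 9.48-fold (3.24, SE 0.52, 1.63e-05), Avil 9.19-fold (3.20, SE 0.47, 2.69e-06), Alox5 6.06-fold (2.60, SE 0.51, 0.000285) and Pou2f3 5.25-fold (2.39, SE 0.43, 8.68e-05). The 5 calls held when any 1 of the 6 samples was left out. The mitochondrial share of counts moved over the same ileal step, from 15.8, 14.6 and 16.9% at week 3 to 26.9, 22.1 and 35.2% at week 4 in replicates 1, 2 and 3, and its part in the rise was not tested. In duodenum it was 17.9 to 23.7% and 21.8 to 26.3% at these ages. In duodenum Avil rose by 1.81 (SE 0.42, edgeR adjusted p = 0.00288), Trpm5 by 1.73 (SE 0.42, 0.0045) and Pou2f3 by 1.32 (SE 0.39, 0.0185), 3 of 7 members against 7.75% of all genes. Dclk1 with 1.10 (SE 0.47, edgeR adjusted p = 0.122) and Alox5 with 1.18 (SE 0.45, 0.0758) were not called. The Pou2f3 call was lost without duodenum week 3 replicate 1 or 2 or week 4 replicate 2, and scaling to the epithelial genes left Avil as the single call.

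**Figure D2:**
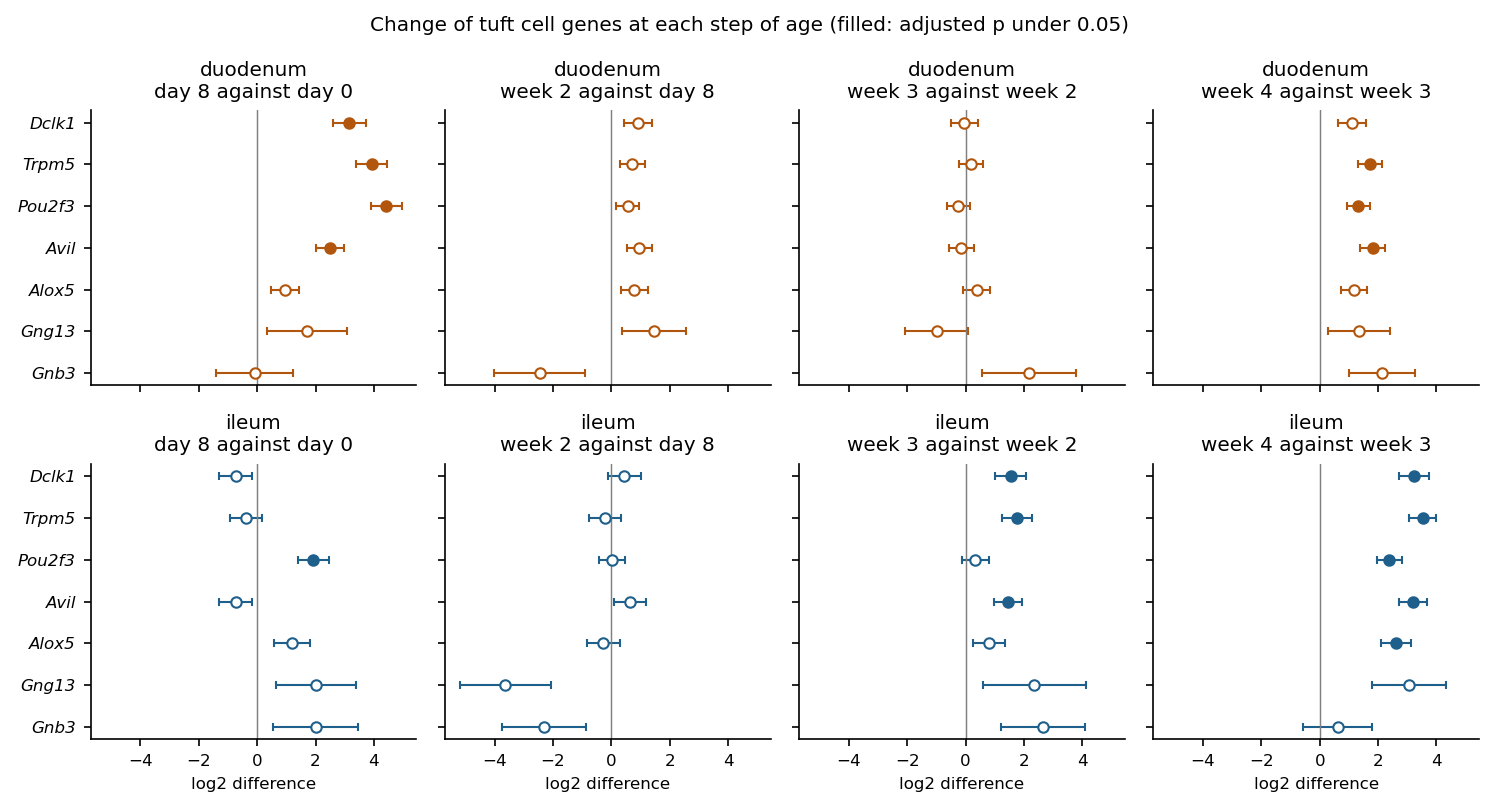
Log2 difference of the 7 tested genes at 4 steps of age, duodenum above and ileum below; bars are standard errors and filled points have an edgeR adjusted p under 0.05. In duodenum filled points lie at day 8 against day 0 (4 genes) and at week 4 against week 3 (3 genes). In ileum they lie at day 8 against day 0 (1 gene), week 3 against week 2 (3 genes) and week 4 against week 3 (5 genes), with none at week 2 against day 8 in either region.

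The ileal samples of week 4 were spread widely, and replicate 2 was the lowest for 6 of the 7 tested members. The summed level of the 8 members was 88.8 CPM in replicate 1, 28.8 in replicate 2 and 76.7 in replicate 3. Replicate 2 was also the lowest for 12 of 17 other tuft signature genes, whereas the 10 epithelial markers summed to 9455, 9692 and 6324 CPM in replicates 1, 2 and 3 and were lowest in replicate 3. Without replicate 2 the ileal rise from week 3 was 3.81 for Trpm5 and 3.61 for Dclk1 on the log2 scale, and the same 5 members were called.

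Averaged over the ages, 5 of 7 members were lower in ileum than in duodenum, against 30.2% of all genes. The log2 difference of Avil was -1.57 (SE 0.18, edgeR adjusted p = 1.06e-09), followed by -1.51 for Alox5 (SE 0.19), -1.44 for Trpm5 (SE 0.19), -1.23 for Dclk1 (SE 0.19) and -1.03 for Pou2f3 (SE 0.18). Gng13 and Gnb3 had differences of -0.79 and -0.09 and were not called. Without ileum day 0 replicate 2, Gng13 was called, with an adjusted p of 0.0495.

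The regional difference was then tested at single ages. At day 0 edgeR called 0 members, against 6.10% of all genes in either direction. At an unadjusted p under 0.05 there were 3, with Dclk1 (1.18) and Trpm5 (1.64) higher in ileum and Alox5 (-1.81) lower on the log2 scale, and DESeq2 called Trpm5 and Alox5. All 8 members overlapped between the regions at that age, and the share of all genes that did so is not given here. Without duodenum day 0 replicate 3, Trpm5 was called with an adjusted p of 0.00537. Alox5 was called without duodenum day 0 replicate 1 or ileum day 0 replicate 2, with an adjusted p of 0.00718 at the lowest.

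At day 8, 5 members were lower in ileum, against 22.6% of all genes. The log2 differences were -3.04 for Avil (SE 0.51, edgeR adjusted p = 3.00e-05), -2.72 for Dclk1 (SE 0.55), -2.68 for Trpm5 (SE 0.50), -1.65 for Pou2f3 (SE 0.43) and -1.55 for Alox5 (SE 0.52, 0.0159). All duodenal samples were above all ileal samples for these 5, and the share of all genes that separate in this way is not given here. The Alox5 call was lost without ileum day 8 replicate 3, with an adjusted p of 0.06. The epithelial markers were also higher in duodenum at day 8, 5238 to 5625 CPM against 3783 to 4328 in ileum, and scaling to them left 3 of the 5 calls, those of Dclk1, Trpm5 and Avil. The 7 mesenchyme and muscle markers summed to 15.3 to 40.7 CPM in duodenum and 151 to 320 in ileum, and their part in the difference was not tested.

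The gap was widest at week 2, with 6 members lower in ileum against 11.8% of all genes and a median log2 difference of the members of -3.17. Trpm5 differed by -3.61 (SE 0.50, edgeR adjusted p = 1.75e-06), a mean of 4.43 CPM in duodenum against 0.355 in ileum. Avil differed by -3.37 (SE 0.48), Dclk1 by -3.17 (SE 0.53), Alox5 by -2.63 (SE 0.51) and Pou2f3 by -2.18 (SE 0.42). Gng13 had 26 counts in duodenum and 1 in ileum, a ratio of 29.4 (exact 95% counting interval 4.82 to 1203), and its call (edgeR adjusted p = 0.031) was lost without duodenum week 2 replicate 1 or 3 or ileum week 2 replicate 2 or 3, reaching 0.127. At this age the epithelial markers summed to 5095 to 5223 CPM in duodenum and 4745 to 5241 in ileum, with 2 of 10 called lower in ileum, and 0 of 8 lymphocyte markers were called. The mesenchyme and muscle sum was 23.5 to 41.3 CPM in duodenum and 61.7 to 131 in ileum, and the enteric neuron and glia sum 55.7 to 78.4 and 117 to 126. The part of these cells in the gap was not tested.

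At week 3, 5 members were still lower in ileum, against 6.90% of all genes, by -2.21 for Alox5 (SE 0.51), -2.03 for Trpm5 (SE 0.46), -1.77 for Avil (SE 0.45), -1.58 for Pou2f3 (SE 0.43) and -1.58 for Dclk1 (SE 0.50). Leaving out any 1 of the 6 samples gave 4 calls. The Dclk1 call (edgeR adjusted p = 0.0296) was lost without any 1 of duodenum week 3 replicates 1, 2 and 3 or ileum week 3 replicates 1 and 2, reaching 0.124. The Pou2f3 call was lost without ileum week 3 replicate 3. The mesenchyme and muscle sum was again higher in ileum, 74.0 to 116 CPM against 21.2 to 24.9.

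At week 4 edgeR and DESeq2 called 0 members between the regions, with 0 under an unadjusted p of 0.05, although 28.4% of all genes differed. The log2 differences were 0.56 for Dclk1 (SE 0.47), -0.23 for Trpm5 (SE 0.41), -0.38 for Avil (SE 0.41), -0.52 for Pou2f3 (SE 0.39) and -0.79 for Alox5 (SE 0.45). With these errors a p that misses the threshold does not show that the levels were equal. Alox5 was called without ileum week 4 replicate 1, with an adjusted p of 0.0483.

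**Figure D3:**
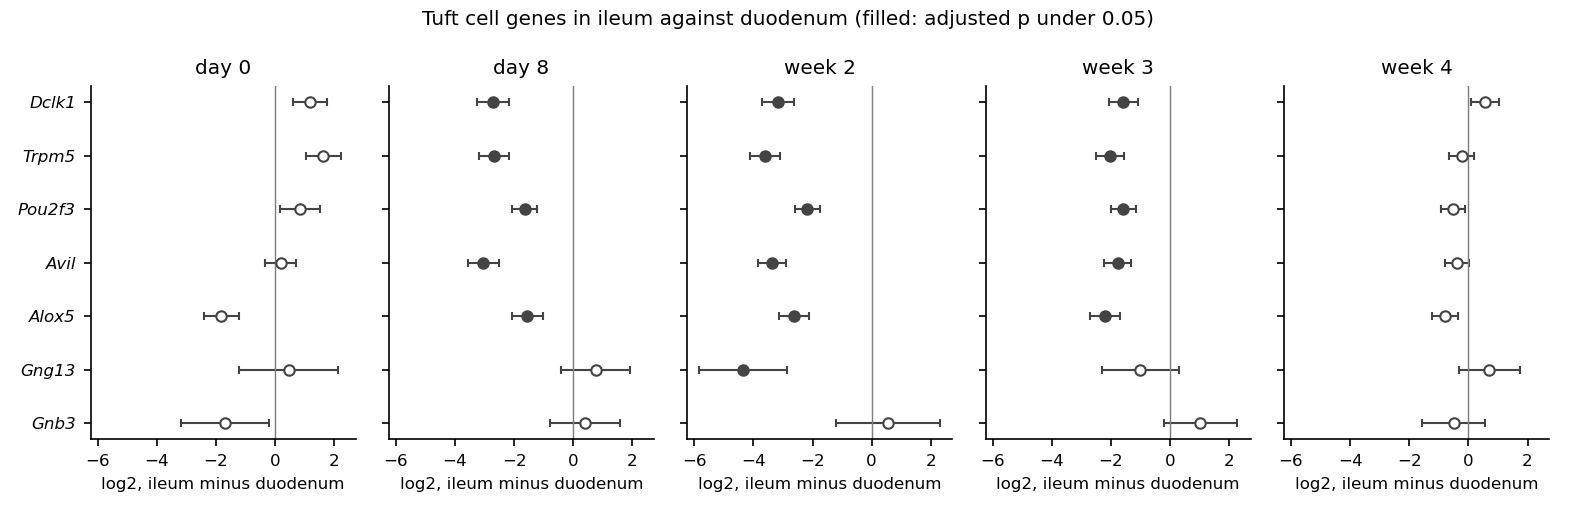
Log2 difference of the 7 tested genes, ileum minus duodenum, at 5 ages; bars are standard errors and filled points have an edgeR adjusted p under 0.05. The filled points lie below 0 from day 8 to week 3, with the median of the genes at -3.17 at week 2, and no point is filled at day 0 or week 4.

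The test of whether the course over age differed between the regions was called for 4 of 7 members, against 22.4% of all genes. These were Trpm5 (edgeR adjusted p = 2.53e-05), Dclk1 (0.000315), Avil (0.00117) and Pou2f3 (0.0237). Pou2f3 was no longer called with the replicate number as a block (edgeR adjusted p = 0.0841) or with the left-out day 6 samples kept under their labels (0.224). The narrower question, whether the step from week 3 to week 4 was larger in ileum, gave 0 calls in edgeR against 1.18% of all genes. The extra ileal rise was 2.14 for Dclk1 (SE 0.68, edgeR adjusted p = 0.114), 1.81 for Trpm5 (SE 0.61, 0.138), 1.41 for Alox5 (SE 0.67) and 1.39 for Avil (SE 0.61) on the log2 scale. These 4 had an unadjusted p under 0.05, DESeq2 called Trpm5, and without ileum week 3 replicate 3 edgeR called Dclk1 (0.0236). The whole change from day 0 to week 4 differed between the regions for 0 members in edgeR, against 5.99% of all genes, with Trpm5 alone under an unadjusted p of 0.05 and 0 calls by DESeq2. For Trpm5 the ileal change was smaller by -1.86 (SE 0.71, edgeR adjusted p = 0.104), and it was called without duodenum day 0 replicate 3 (0.00692).

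Scaling libraries to the 10 epithelial genes asks how the members moved relative to the epithelium as a whole. It shifted the median of all genes by -1.02 for week 4 against day 0 in duodenum and by -0.91 in ileum, so every difference is read relative to that shift. Under it Trpm5 still rose by 5.57 and 3.87, Pou2f3 by 5.03 and 3.75, Avil by 4.13 and 3.70, Dclk1 by 4.11 and 3.60 and Alox5 by 2.26 and 3.41 in duodenum and ileum, and Gng13 was no longer called. Expressed as a ratio, the 8 members had 0.443 ± 0.190 CPM per 1000 CPM of the epithelial markers in duodenum at day 0, then 2.49 ± 0.272 on day 8. The week 2 ratio was 4.60 ± 0.898, the week 3 ratio 3.59 ± 0.502 and the week 4 ratio 7.52 ± 0.359 (SD, n = 3). In ileum the ratio was 0.666 ± 0.377, 0.667 ± 0.202, 0.554 ± 0.169, 0.826 ± 0.425 and 8.16 ± 4.70 at the same ages. The ileal ratios of week 3 overlapped with those of day 0, and the 3 week 4 samples, from 2.97 to 12.1, all lay above the earlier ones.

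Over the 16 means of region and age, 6 of the 7 tested members moved alike. The correlation of each with the mean of the other 6 was 0.97 for Avil, 0.95 for Dclk1, 0.94 for Trpm5, 0.90 for Pou2f3, 0.90 for Alox5 and 0.85 for Gng13, and 0.48 for Gnb3. These points share libraries and depth, so the values are descriptions.

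Among the receptors and transducers that act upstream of Trpm5, 3 of the 7 tested genes rose in duodenum between day 0 and week 4. In ileum 5 rose, and none fell in either region. Over all genes 20.4% rose in duodenum and 21.5% in ileum. Plcb2, the phospholipase of the taste cascade, rose by 2.41 (SE 0.40) in duodenum and 2.26 (SE 0.40) in ileum, from 1.49 ± 0.682 to 7.26 ± 1.79 CPM in the latter. Gnat3, the taste G protein alpha subunit, went from 3 to 29 counts in duodenum, a ratio of 10.6 (exact 95% counting interval 3.30 to 54.6), and from 1 to 92 in ileum, a ratio of 133 (23.3 to 5314). Ffar3, a receptor for short-chain fatty acids, rose by 3.03 (SE 0.64) and 2.56 (SE 0.64). Itpr3, the calcium release channel, was not called, with 147 ± 8.28 CPM at day 0 and 129 ± 30.0 at week 4 in duodenum and 169 ± 5.45 and 141 ± 27.1 in ileum. Tas1r3 had log2 differences of -0.03 and 0.04, and Tas1r1, a further taste receptor, was too low to test.

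Sucnr1, the succinate receptor, ran on a course of its own in duodenum. Its mean there was 0.633 ± 0.340 CPM at day 0, 4.02 ± 0.542 at day 8 and 4.27 ± 1.27 at week 2, then 0.481 ± 0.0419 at week 3 and 0.680 ± 0.372 at week 4. The fall from week 2 to week 3 was -3.13 on the log2 scale (SE 0.60, edgeR adjusted p = 0.00013), while no member was called over that step. In ileum Sucnr1 rose with the members between week 3 and week 4, by 3.19 (SE 0.68, edgeR adjusted p = 0.000737), to 2.50 ± 1.77 CPM. The interaction of region and age was called for it (edgeR adjusted p = 0.000273).

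Genes for tuft cell mediators, for enzymes that make them and for a partner protein moved in both directions. Chat, which makes acetylcholine, went from 2 to 68 counts in duodenum, a ratio of 37.4 (exact 95% counting interval 9.97 to 315), and from 3 to 55 in ileum, a ratio of 26.5 (8.61 to 133). Alox5ap, the partner protein of Alox5, rose by 2.19 (SE 0.52) and 2.74 (SE 0.56) on the log2 scale. Hpgds, a prostaglandin D synthase, fell by 4.28 (SE 0.43) in duodenum and fell by 3.79 (SE 0.43) in ileum, and the fall lay between week 2, with 69.3 ± 9.17 and 76.8 ± 7.85 CPM, and week 3, with 5.77 ± 3.45 and 7.55 ± 4.91. Tslp, a cytokine gene and not an enzyme gene, fell in duodenum by 2.73 (SE 1.10, edgeR adjusted p = 0.0441) and was not called in ileum. Pla2g4a, Ptgs1 and Ltc4s were not called in either region. Of the 7, 2 rose and 2 fell in duodenum, and 2 rose and 1 fell in ileum. Over all genes 20.4% and 21.5% rose and 20.1% and 20.4% fell, in duodenum and ileum, and with shares this close nothing is read about the list from its counts.

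Of 5 further transcription factors, 5 rose in duodenum and 3 in ileum from day 0 to week 4. The shares of all genes that rose were 20.4% and 21.5%. Spib, which is also a factor of lymphoid cells and M cells, rose by 6.26 (SE 0.65) and 6.66 (SE 0.66), to 13.2 ± 1.06 and 23.1 ± 8.67 CPM. Hmx2 rose by 4.87 (SE 0.91) and 2.85 (SE 0.91). Hmx3, its chromosomal neighbour, had 3 counts at day 0 in each region, and its ratio of week 4 to day 0 was 19.4 (exact 95% counting interval 6.30 to 97.3) and 10.1 (3.02 to 53.0). Gfi1b rose by 3.30 (SE 1.05) in duodenum and was not called in ileum, with 2.25 (SE 1.07, edgeR adjusted p = 0.0885). Scaled to the epithelial genes, 3 of the 5 were called in duodenum and 1 in ileum. The shares above do not apply to that scaling, which moved the median of all genes by -1.02 and -0.91. Nothing is read from these 2 counts.

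Of 17 other genes of published tuft cell signatures, 15 rose and 1 fell in each region. Between day 0 and week 4, 20.4% of all genes rose in duodenum and 21.5% in ileum, and 20.1% and 20.4% fell. Rgs13, a regulator of G protein signalling, had 3 counts in the duodenum at day 0 and 948 at week 4, a ratio of 348 (exact 95% counting interval 119 to 1689), and reached 9.06 ± 2.03 CPM there and 15.4 ± 9.04 in ileum. Sh2d7, an adaptor with an SH2 domain, had 2 and 1065 counts in duodenum, a ratio of 586 (162 to 4844), and its ileal means were 0.157 ± 0.0626 CPM at week 2, 1.01 ± 0.427 at week 3 and 9.23 ± 4.01 at week 4. Its relative Sh2d6 rose by 5.55 (SE 0.77) and 5.07 (SE 0.77). Trim38 stayed at or below 0.390 CPM in every duodenal sample of day 0, day 8 and week 2 and then had 7.89 ± 3.78 at week 3 and 22.4 ± 3.45 at week 4, a later course than that of Pou2f3. Kctd12 had 57.8 ± 14.8 CPM at day 0 and 65.6 ± 11.8 at week 4 in duodenum and was not called. The gene that fell was Nradd, named because it was the exception and so after its values were seen, from 5.36 ± 1.25 to 0.821 ± 0.311 CPM in duodenum and from 8.12 ± 2.52 to 0.900 ± 0.0319 in ileum.

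Over the same list, 11 of 17 genes were lower in ileum at week 2 and 1 higher. At week 4, 1 was higher and none lower. Over all genes 11.8% were lower in ileum at week 2, and 28.4% differed in either direction at week 4. The median difference of the list, ileum against duodenum, was -1.50 on the log2 scale at week 2 and 0.13 at week 4. Between week 3 and week 4, 14 of 17 rose in ileum and 11 in duodenum, against 8.26% and 7.75% of all genes. The lists were drawn up with earlier results of these samples known, so their direction is not independent evidence.

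Of 16 genes of the immune circuit in which Il25 acts, 12 passed the filter on low counts, and the 4 that did not were the cytokine genes Il4, Il5, Il9 and Il13. Il9 was at 0 counts in all 16 groups of region and age, and Il13 was at 0 in every sample of the duodenum at week 3 and of the ileum at weeks 2, 3 and 4. Il4 and Il5 had 0.118 ± 0.0308 and 0.0180 ± 0.0156 CPM in duodenum at week 4 and 0.107 ± 0.0960 and 0.0414 ± 0.0717 in ileum. Retnlb, a goblet cell product that Il13 induces, had 0.569 ± 0.157 CPM in duodenum and 2.04 ± 1.07 in ileum at week 4, against 1 and 0 counts over the 3 samples of each region at week 3. From day 0 to week 4 Retnlb was called as rising in ileum and was not called in duodenum. Il2rg, a receptor chain of many lymphocyte cytokines, rose from day 0 to week 4 by 2.14 (SE 0.44) and 3.65 (SE 0.47). Il1rl1, the receptor for Il33, had log2 differences of -3.78 (SE 0.46) and -1.44 (SE 0.43), both called, and the leukotriene receptor gene Cysltr1 had -3.81 (SE 0.54) and -2.58 (SE 0.47), both called. Over the 12 tested genes of the list, 6 rose and 3 fell in duodenum and 8 rose and 3 fell in ileum. Over all genes 20.4% and 21.5% rose and 20.1% and 20.4% fell, in duodenum and ileum. The falls of the list were close to these shares, and nothing is read from their count.

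Several of these genes are not exclusive to tuft cells, so other cell types were followed in the same samples. All 8 lymphocyte markers rose between week 3 and week 4 in both regions, from a summed 14.2 to 18.5 CPM to between 89.3 and 99.2 in duodenum and from between 8.48 and 24.9 to between 162 and 485 in ileum. In the ileal week 4 samples their order differed from that of the members, with 162 CPM in replicate 1, 265 in replicate 2 and 485 in replicate 3. Of 10 macrophage markers, 3 rose and 1 fell over the ileal step from week 3 to week 4. Their sums were 51.0 to 60.4 CPM at week 3 and 81.2 to 106 at week 4. Over these weeks 7.75% of all genes rose in duodenum and 8.26% in ileum. Alox5, Spib and Alox5ap are also expressed by leukocytes, and the part of these cells in their rise was not tested. At week 2, where the regional gap of the members was widest, the lymphocyte sums were 17.3 to 25.9 CPM in duodenum and 13.0 to 33.2 in ileum.

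Dclk1 is also a gene of neurons. The 11 enteric neuron and glia markers were highest at week 2 in ileum, 117 to 126 CPM summed, and had 18.2 to 37.3 at week 4, when Dclk1 was at its highest. In duodenum they had 55.7 to 78.4 at week 2 and 10.6 to 14.8 at week 4. The muscle and mesenchyme sum was 86.5 to 231 CPM in ileum and 22.1 to 74.8 in duodenum at week 4. Mast cell and granulocyte markers, pancreatic acinar markers and enteroendocrine markers had sums of 4.10 to 19.0, 8.55 to 11.6 and 295 to 705 CPM in ileum at week 4, with Ly6g, Epx, Cpb1, Cela2a, Prss2, Pnlip and Ctrb1 at 0 there. The part of these cells in the results was not tested.

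**Figure D4:**
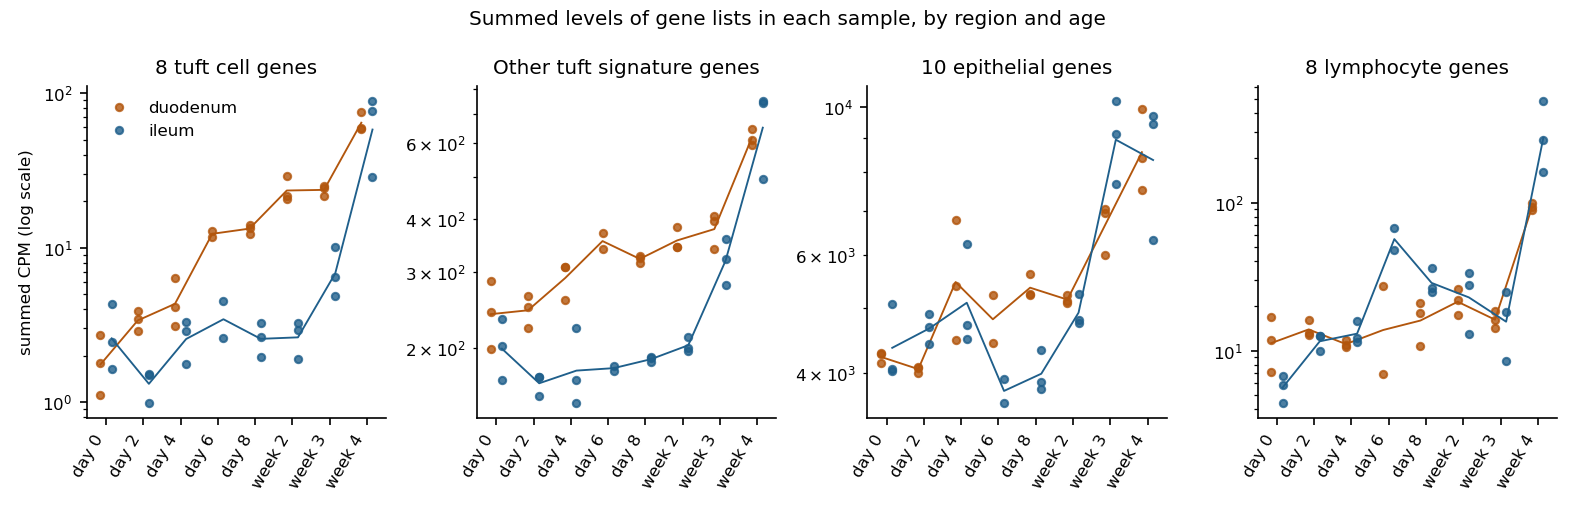
Summed CPM of 4 gene lists in every sample by age, on log axes with a separate range in each panel (orange duodenum, blue ileum); lines join the geometric means of the groups. The tuft cell genes are higher in every duodenal than in every ileal sample at day 2 and from day 6 to week 3, and overlap at day 0, day 4 and week 4. The lymphocyte genes overlap at day 4, week 2 and week 3, are higher in duodenum at day 0 and day 2, and are higher in ileum at day 6, day 8 and week 4.

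Outside the lists, the 6 genes whose course over the 16 means was most like that of the members, among 15831 compared, were Pik3r5 (r = 0.97), Gzmb (0.95), Smad1 (0.94), Tmem229a (0.93), Ms4a12 (0.93) and Ephx1 (0.93). Likeness was Pearson's r of log2 CPM with the mean of the z-scored members, over points that share libraries. Pik3r5, a regulatory subunit of a phosphoinositide kinase, had geometric means of 0.721 CPM at day 0, 4.72 at week 3 and 9.02 at week 4 in duodenum, and of 0.603, 1.57 and 8.25 in ileum. Gzmb, the granzyme of cytotoxic lymphocytes, had 0.140, 3.11 and 53.0 in duodenum and 0.109, 0.267 and 29.3 in ileum. Of the other tuft genes, Lrmp (0.97), Siglecf (0.95), Sh2d7 (0.94), Plcg2 (0.94) and Sh2d6 (0.94) had the highest r, and Hpgds (-0.80) and Nradd (-0.86) the lowest.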

How the data were processed

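Whole-thickness duodenum and ileum were sequenced as total RNA on a NovaSeq instrument, per the labels' protocols. The submitters' processing notes list mm10, STAR 2.6.1d, Salmon 0.14.2 and DESeq2 1.30.1 without roles. The deposited table holds estimated counts per gene, made with tximport per its name, and its values are whole numbers used as they stand. Of the 54532 identifiers, 54409 were in GENCODE M21. The authors' normalized tables gave the 51106 symbols. Their deposited signal, 40 columns in all, was checked to be the counts divided by 1 factor per sample and was not tested. It has no column for any day 4 sample or for the day 6 samples numbered 3. Which annotation the authors used is not given in the sources used here.

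The members, lists and tests were chosen with earlier results of these data known. The 21986 genes that filterByExpr kept entered a single edgeR fit, version 4.0.16 under R 4.3.3 (TMM, 1 mean per group, quasi-likelihood tests, Benjamini-Hochberg adjustment over all genes, calls at an adjusted p under 0.05). Standard errors were derived from the F statistics. Levels are TMM-scaled CPM, and log2 CPM used a prior count of 2. The fit was tested on simulated data. The 2 day 6 samples numbered 3 were left out. Alternatives were RLE and epithelial-gene scaling, no count filter, a mean count of 10, DESeq2 1.42.0, all 48 samples, no day 4 samples, a replicate block and leaving out each sample. Named list genes are the 4 called ones with the largest change from day 0 to week 4 in either region and the 3 uncalled ones with the highest mean, and of 136 list symbols 135 matched. Totals per sample were 16824021 to 65042327, and intervals and floors cover counting error only.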

Additional observations from a re-analysis of the deposited data

Results flagged for a closer look

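The course over age differed between duodenum and ileum for 4 members by the test of the difference itself, with an edgeR adjusted p of 2.53e-05 for Trpm5, 0.000315 for Dclk1, 0.00117 for Avil and 0.0237 for Pou2f3. The Pou2f3 call was lost with a replicate block (edgeR adjusted p = 0.0841) and with all 48 samples (0.224).

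The day 6 samples left out of the main fit, and kept only in the alternative with all 48 samples, held counts of the members. In the sample labelled duodenum, Dclk1 was at 0.689 CPM, Avil at 0.689, Gnb3 at 0.488, Trpm5 at 0.459, Alox5 at 0.373 and Pou2f3 at 0.287. In the sample labelled ileum, Dclk1 was at 4.39 CPM, Trpm5 at 2.56, Avil at 1.41, Alox5 at 1.19 and Pou2f3 at 0.980. The other day 6 samples had 4.45 and 4.60 CPM of Dclk1 in duodenum and 1.30 and 0.712 in ileum. An exchange of these samples between the regions was not tested beyond the regional markers Gata4, Pdx1 and the ileal bile acid binding protein gene Fabp6. Fabp6 had 2.25 CPM in the sample labelled duodenum and 0 in the sample labelled ileum, against 2.09 to 1723 in the 23 ileum samples and 0 to 4.80 in the 23 duodenum samples.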

How the results depend on the processing

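No called difference of a member changed sign under any alternative run. Of 1098 values of single members under other settings, 1066 kept their side of the threshold, 23 lost a call and 9 gained one. Of 1764 values with 1 sample left out, 1719 kept theirs, 30 lost a call and 15 gained one. Scaling to the epithelial genes left 1 member called from week 3 to week 4 in duodenum, 0 from week 2 to week 3 in ileum and 3 between the regions at day 8. The shares of all genes given above belong to the main fit and not to the alternatives. With all 48 samples the counts were 1 from week 3 to week 4 in duodenum, 1 from week 2 to week 3 in ileum and 3 between the regions at week 3. Without day 4, 1 member was called between the regions at day 0 and 1 for the regional difference of the last step, and DESeq2 called 2 and 1. With 1 sample left out, the counts ran from 0 to 1 for day 0 to day 8 in ileum, from 1 to 3 for week 2 to week 3 in ileum, from 0 to 1 between the regions at day 0 and at week 4, and from 0 to 1 for the regional differences of the last step and of the whole span. The cause of these shifts was not tested. A replicate block ended 3 calls of members, those of Dclk1 from week 2 to week 3 in ileum (edgeR adjusted p = 0.0543), Gng13 between the regions at week 2 (0.0514) and Pou2f3 in the interaction (0.0841), and changed no other. Same-numbered samples of the regions had correlations from -0.147 to 0.452. A value above 0.1 was asked of every pair and reached in 9 of 23, so the numbers were not taken as pairs. The 2 day 6 pairs share 1 value, 0.0159, because 2 samples per group mirror each other. At the ages with 3 pairs, 26 of 42 samples correlated best with their own number, more than an even spread over the 3 numbers would give. Whether same-numbered samples share an animal was not tested. Depth limits Il25, Gnb3 and Gng13.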
